A study of Arabidopsis thaliana with 8 samples.

Results

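The drought response of VaNAC26-OE plants was measured as the difference between leaf RNA taken at 5 d after the last irrigation (OE 5d, 2 arrays) and leaf RNA taken before water was withheld (OE 0d, 2 arrays). These 4 of the 8 arrays in the series were chosen by their titles alone, and the other 4 hold wild type plants at the same times (WT 5d and WT 0d, 2 arrays each). VaNAC26-OE plants are Arabidopsis thaliana Col-0 carrying VaNAC26, a NAC transcription factor gene of the grapevine Vitis amurensis, behind the CaMV 35S promoter, which drives expression in most cell types. Each OE sample pooled leaves of 3 transgenic lines, so differences between lines are not visible here. WT was untransformed Col-0, and all plants had grown in soil for 21 d before water was withheld. No group was watered until 5 d, so drought cannot be told apart from plant age and sampling day. The transcript of the grapevine gene itself was not analysed here. RNA was hybridized to Affymetrix ATH1 GeneChips, which read each transcript with a probe set, and the values are normalized intensities on a linear scale.

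A drying plant accumulates abscisic acid (ABA), which closes stomata and, through bZIP factors, switches on genes for dehydrins, other protective proteins and protein phosphatases that damp the signal. Cold and dehydration share many of these targets, the COR genes among them. Leaves short of water also slow cell division and wall growth, reduce the building of chloroplasts, and recycle cell contents by autophagy, while defence genes that respond to salicylic acid or to misfolded proteins in the endoplasmic reticulum can rise or fall with the stage of stress.

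Log2 intensities of 22746 probe sets were compared with limma in 1 fit of all 8 arrays, with 4 residual degrees of freedom, and a gene is said to have risen or fallen where its p, adjusted by Benjamini and Hochberg over all probe sets, was under 0.05. Where 2 values are joined by "and", replicate 1 stands before replicate 2. Intensities under 32 (47.8% of all values) were taken as close to background, and folds that involve them are uncertain in size. Of the probe sets, 13531 were given to 1 gene, 1643 of these with a symbol and the rest with a locus tag only. No source states whether the replicates of a group were grown as separate plants, and the p-values therefore reflect variation among these particular samples, which could be technical alone. The pair of OE 5d arrays was the widest: it differed by over 2-fold at 1294 probe sets (5.69%), against 79 (0.347%) for OE 0d, 143 (0.629%) for WT 5d and 87 (0.382%) for WT 0d. For this reason the values of each OE 5d array are given separately. RCA, the activase of Rubisco and a marker of green leaf, was among the brightest transcripts, at 6992 and 8599 in OE 5d and 9232 and 9583 in OE 0d. The ratio of 3' to 5' signal of the GAPDH control, a measure of RNA integrity and labelling, was 1.04 and 0.85 (log2) in OE 5d, against 0.70 and 0.45 in OE 0d and between 0.82 and 0.89 in WT. That of actin was 2.91 and 3.30 in OE 5d and 3.79 and 3.32 in OE 0d, and that of ubiquitin 1.23 and 1.19 in OE 5d and 1.36 and 1.35 in OE 0d. The part of RNA quality in the results was not tested.

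Many transcripts of VaNAC26-OE leaves differed between 5 d and 0 d. In OE 5d against OE 0d, 1607 probe sets rose (7.06% of those tested) and 1485 fell (6.53%), of which 760 and 471 changed by over 2-fold. In WT 5d against WT 0d, 3567 rose (15.7%) and 3376 fell (14.8%), 30.5% in all. The contrasts of the OE and WT arrays share no array but share 1 estimate of spread per probe set, so their calls are not independent. Of the risen probe sets, 1358 were called in both genotypes (84.5% of those in OE and 38.1% of those in WT). Of the fallen ones, 1081 were (72.8% and 32%). In opposite directions, 13 rose in OE and fell in WT, and 7 fell in OE and rose in WT. The test of the difference between the responses called 7 probe sets (0.0308%), all with a more positive change in OE, where 1691 higher and 1684 lower had an unadjusted p under 0.05 and the test without moderation called 0. The wide OE 5d pair enters this test. With OE 5d replicate 2 alone, 140 probe sets were more positive and 35 more negative in OE than in WT, and with OE 5d replicate 1 alone 2212 and 1947, both under the assumption that a lone array varies like the other groups.

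The OE counts depended on the arrays that entered. Leaving out OE 5d replicate 1 gave 2658 higher and 2989 lower, and leaving out OE 5d replicate 2 gave 1777 and 1741. They dropped to 418 and 271 without the first OE 0d array, to 203 and 80 without the second, and to 1107 and 958 without either WT 0d array. A fit of the 4 OE arrays alone called 225 and 127, every one of them also called in the fit of all arrays.

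The 2 OE 5d arrays had moved by different amounts. Relative to the mean of the OE 0d arrays, OE 5d replicate 1 was more than 2-fold higher at 819 probe sets (3.6%) and lower at 544 (2.39%), and OE 5d replicate 2 was higher at 1320 (5.8%) and lower at 1210 (5.32%). Set against each other, replicate 2 was more than 2-fold above replicate 1 at 581 probe sets (2.55%) and below it at 713 (3.13%). Both use the same OE 0d mean, and single arrays allow no test. Against the WT change, which uses none of these arrays, the change on OE 5d replicate 1 had a slope of 0.31 (r = 0.47 over 22746 probe sets) and that on OE 5d replicate 2 a slope of 0.70 (r = 0.82). The median change over all probe sets was 0.01 (log2) on replicate 1 and -0.02 on replicate 2.

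**Figure D1:**
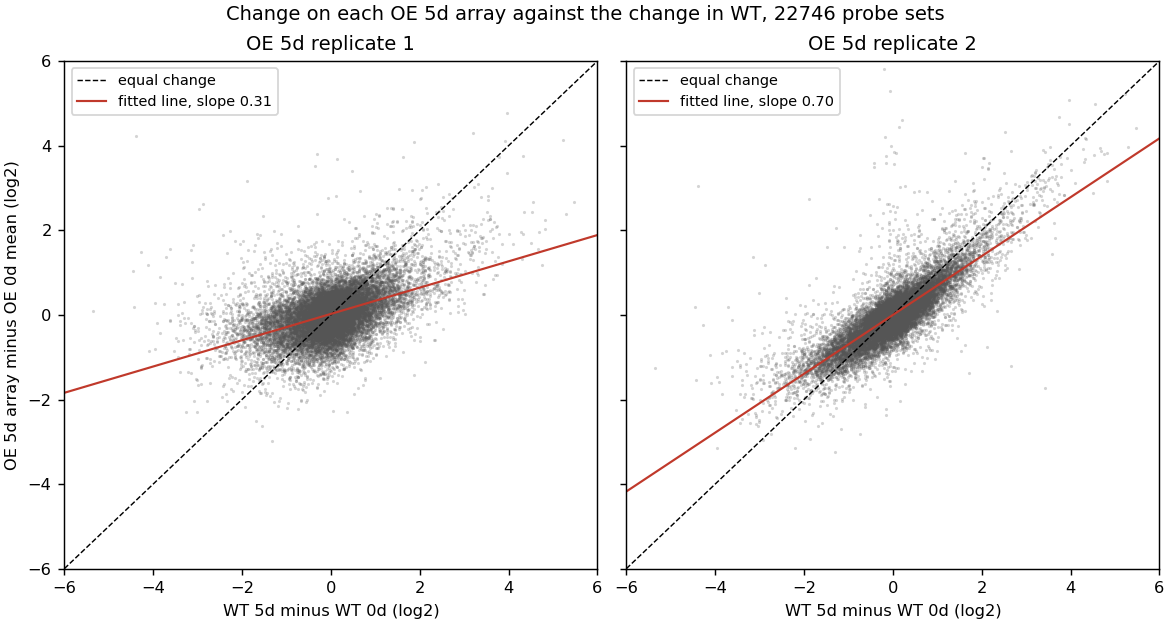
Log2 change of each probe set on OE 5d replicate 1 (left) and OE 5d replicate 2 (right) relative to the OE 0d mean, against the log2 change of WT 5d over WT 0d on the x axis; the dashed line marks equal changes and the red line is the least-squares fit. The fitted slopes are 0.31 for replicate 1 and 0.70 for replicate 2, and the correlations over probe sets 0.47 and 0.82.

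Both the rises and the falls of WT were smaller on OE 5d replicate 1. The probe sets below were chosen by their WT change, which by itself makes the WT medians larger in size than those of OE. The size of this effect was not estimated, and it does not enter the comparison of the 2 OE 5d arrays with each other. For the 3567 probe sets that rose in WT, by a median of 0.94 (log2), the median change was 0.41 on OE 5d replicate 1 and 0.68 on replicate 2. For the 3376 that fell in WT, by a median of -1.04, it was -0.32 on replicate 1 and -0.76 on replicate 2. Among the 374 that rose over 4-fold in WT, with a median of 2.49, the medians were 1.14 and 2.13, and 264 (70.6%) also rose in OE. Among the 348 that fell over 4-fold in WT, with a median of -2.38, the medians were -0.39 and -1.40, and 110 (31.6%) also fell in OE. Of these 348, 52 were more than 2-fold lower on OE 5d replicate 1 and 273 on replicate 2.

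The 14 largest rises were taken among called genes with a name, no overlap between OE 5d and OE 0d, and both OE 5d arrays at 32 or more. Of these, 4 carried a symbol. CHI (AT2G43570), a chitinase family gene of pathogen defence, was at 654 and 1458 in OE 5d, against 89.6 and 45.6 in OE 0d. It rose by 3.93 on the log2 scale, with a standard error of 0.51 and an adjusted p of 0.00439, and OE 5d replicate 2 was 2.23-fold above replicate 1. SIS, a salt-induced gene of a serine-rich protein, was at 576 and 966 in OE 5d, against 67.9 and 80.6 in OE 0d (log2 change 3.33, adjusted p = 0.0011). COR27, a cold-regulated gene tied to the circadian clock, reached 56.1 and 74.6 in OE 5d, against 7.03 and 6.86 in OE 0d. HIS1-3, a linker histone known as drought-inducible, reached 131 and 223 in OE 5d, against 17.5 and 22.3 in OE 0d. In all 4, OE 5d replicate 2 was the higher of its pair. The OE 0d values of COR27 and HIS1-3 were under 32, so their log2 changes of 3.22 and 3.11 are uncertain in size.

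The other 10 of these rises are known here by locus tag only. AT1G56300 was at 471 and 356 in OE 5d, against 26.5 and 27.7 in OE 0d, and AT5G52390 at 342 and 304, against 22.1 and 29.7. Both were somewhat higher on replicate 1. AT2G39920 moved evenly, to 85.1 and 90.1 in OE 5d, against 10.8 and 9.10 in OE 0d, with the smallest adjusted p of the 14 (0.000702). AT3G15630 was at 625 and 443 in OE 5d and 57.6 and 61.5 in OE 0d, a log2 change of 3.14, where WT had 152 and 186 in WT 5d and 144 and 100.2 in WT 0d. The difference between these responses, 2.66 on the log2 scale, had an adjusted p of 0.0819. AT2G37870, AT3G01830, AT1G11210, AT5G52760 and AT1G57630 had log2 changes between 3.11 and 3.39. Of these 5, AT2G37870 alone was higher on replicate 1.

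**Figure D2:**
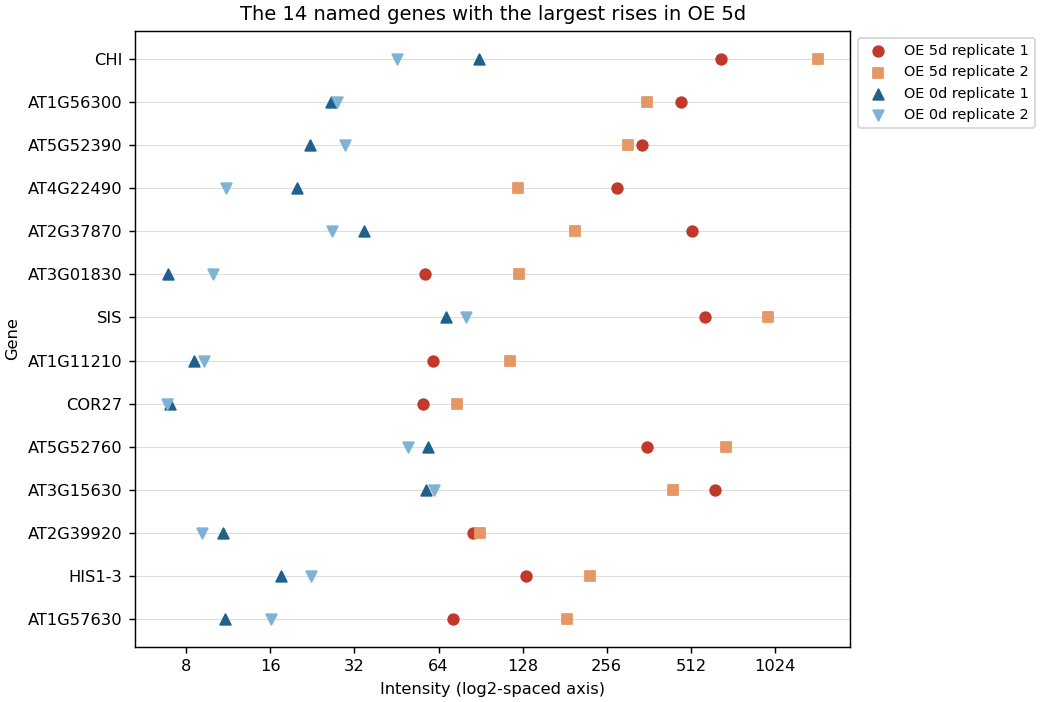
Intensity on a log axis for the 14 genes with the largest rises in OE 5d, 1 row per gene and 1 marker per array. The genes were chosen so that OE 5d and OE 0d do not overlap; the distance between the OE 5d markers varies, and for CHI replicate 2 (1458) lies right of replicate 1 (654).

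The tenth of the locus tags, AT4G22490, went the other way in WT. It was at 278 and 123 in OE 5d, against 20.0 and 11.1 in OE 0d, and at 17.7 and 14.5 in WT 5d, against 440.2 and 251 in WT 0d. It rose in OE by 3.63 and fell in WT by 4.38 on the log2 scale, and the difference of 8.01 passed the test (adjusted p = 0.0132). OE 0d and WT 5d were under 32 on all 4 arrays, so the sizes of both changes are uncertain. The OE 5d and WT 0d arrays overlapped with each other and lay well above the other 4.

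Genes of the ABA, dehydration and cold response had the same median change on both OE 5d arrays, while single members differed between them. Of 28 listed genes with a probe set, 14 rose and 1 fell, beside 6.79% and 5.47% over all 13381 genes with 1 probe set each. The median log2 change was 1.07 on replicate 1 and 1.07 on replicate 2, beside 0.02 and -0.02 over all genes. In WT the median was 1.01, and 16 of the 28 rose and 3 fell, beside 1961 and 1873 of the 13381 genes. With OE 5d replicate 1 left out 18 genes rose, and with replicate 2 left out 16. Over all genes the shares called also grew, to 10.8% higher and 11.9% lower without OE 5d replicate 1 and to 7.82% and 6.13% without OE 5d replicate 2, and the list counts given below for these settings stand beside them.

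HAI2, a protein phosphatase of the ABA pathway, was at 74.4 and 74.4 in OE 5d, against 12.6 and 13.8 in OE 0d (log2 change 2.5, adjusted p = 0.00194). Its 2 OE 5d arrays had nearly the same value. COR15B was at 342 and 212 in OE 5d, against 42.2 and 37.4 in OE 0d, and its neighbour COR15A at 874 and 474, against 244 and 213. These encode chloroplast proteins that protect membranes in freezing and drying cells, and both were higher on replicate 1. Their log2 changes were 2.76 and 1.49 (adjusted p = 0.0046 and 0.029). COR413IM1, of the chloroplast inner envelope, was at 517 and 426 in OE 5d, against 113 and 124 in OE 0d. The dehydrin gene COR47 was at 788 and 952 in OE 5d, against 322 and 370.1 in OE 0d, and the late embryogenesis abundant gene LEA14 at 1279 and 1312, against 597 and 548. STZ, a zinc finger repressor, reached 324 and 512 in OE 5d, against 39.8 and 82.8 in OE 0d, while XERICO, whose RING protein promotes ABA accumulation, reached 386 and 326, against 180.1 and 145. RD2, DI19 and the aldehyde dehydrogenase gene ALDH7B4 rose as well, by 1.02 to 1.43 on the log2 scale.

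Some dehydration genes were high on OE 5d replicate 1 only. The dehydrin gene LTI30 was at 209 and 47.4 in OE 5d, against 41.0 and 51.3 in OE 0d, and DI21, a drought-induced gene, at 519 and 112, against 125 and 136. On replicate 2 both lay close to or under the OE 0d values, and neither passed the test (adjusted p = 0.262 and 0.384). HVA22C, of an ABA-inducible family of membrane proteins, was at 247 and 86.1 in OE 5d, against 212 and 225 in OE 0d, with its low value on replicate 2. ERD9, a glutathione transferase gene named for early response to dehydration, fell to 205 and 209 in OE 5d, against 691 and 788 in OE 0d (log2 change -1.83, adjusted p = 0.00296), the same on both arrays. LEA18 and the dehydrin gene LEA were under 32 on all 8 arrays.

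Immune genes were mostly higher on OE 5d replicate 2. Of 25 genes of immune signalling and pathogen response, 11 rose and 1, PR-1-LIKE, fell, beside 6.79% and 5.47% over all genes. All values of PR-1-LIKE were under 32. The median log2 change of the list was 0.23 on replicate 1 and 1.11 on replicate 2, beside 0.02 and -0.02 over all genes. In WT the median was 1.41 and 17 rose, beside 1961 of all 13381 genes. Replicate 2 was above replicate 1 at 23 of the 25 genes, where it was at 6105 of all 13381 (45.6%). The test called 16 of them risen when OE 5d replicate 1 was left out, and 10 when replicate 2 was.

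MPK11, a MAP kinase induced by pathogen signals, was at 52.4 and 164 in OE 5d, against 15.1 and 16.7 in OE 0d (log2 change 2.54, adjusted p = 0.0111). WT 5d had 179 and 268, which made replicate 2 of OE 5d the closer to WT 5d, with replicate 1 3.13-fold lower than replicate 2. NIMIN1, which binds the salicylic acid receptor NPR1, was at 84.3 and 149 in OE 5d, against 15.3 and 16.1 in OE 0d. The glutaredoxin gene GRX480, another target of salicylic acid, reached 159 and 359.9 in OE 5d, against 58.3 and 52.9 in OE 0d, and GRXS13 88.2 and 177, against 18.1 and 20.3. WRKY53, a factor of senescence and defence, was at 242 and 394 in OE 5d, against 53.7 and 44.5 in OE 0d. For these 4 genes replicate 2 was the higher of the OE 5d arrays, and neither overlapped with OE 0d. The exocyst gene EXO70B2, the callose synthase gene CALS1, the ubiquitin ligase genes RING1 and PUB24 and the powdery mildew susceptibility gene MLO2 rose by 1.04 to 1.65 on the log2 scale. UGT76B1, a glucosyltransferase of salicylic acid, was at 8.33 and 25.2 in OE 5d, against 8.36 and 5.63 in OE 0d, and at 50.4 and 49.5 in WT 5d (adjusted p = 0.162 in OE).

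Genes that fold and check proteins in the endoplasmic reticulum were also more often higher on replicate 2, by less at the median. Of 17, 4 rose (beside 6.79% over all genes) and 0 fell in OE, and 8 rose in WT (beside 1961 of all 13381 genes). The medians were 0.40 on replicate 1, 0.46 on replicate 2 and 0.61 in WT. Of these 17 genes, 14 were higher on replicate 2 than on replicate 1, as were 45.6% of all genes. Leaving out replicate 1 of OE 5d raised the count to 8, and leaving out replicate 2 gave 5. CRT3, a calreticulin that retains immune receptors until folded, was at 839.8 and 1523 in OE 5d, against 445 and 345 in OE 0d (log2 change 1.53, adjusted p = 0.0138). BZIP60, a factor of the unfolded protein response, was at 430.3 and 601, against 211 and 265, and the derlin genes DER2.1 and DER2.2, of the export of misfolded proteins, rose by 0.87 and 0.67 on the log2 scale. BIP3, the stress-induced luminal Hsp70, was at 18.2 and 107 in OE 5d, against 11.6 and 14.5 in OE 0d. It was under 32 on all these arrays but replicate 2 of OE 5d, and WT 5d had 166 and 175. Its adjusted p in OE was 0.123. The co-chaperone gene ATERDJ3B was at 527 and 1117 in OE 5d, against 379 and 355 in OE 0d, and the calreticulin gene CRT1b at 407 and 882, against 679.7 and 649.6, lower on replicate 1 than on either OE 0d array.

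**Figure D3:**
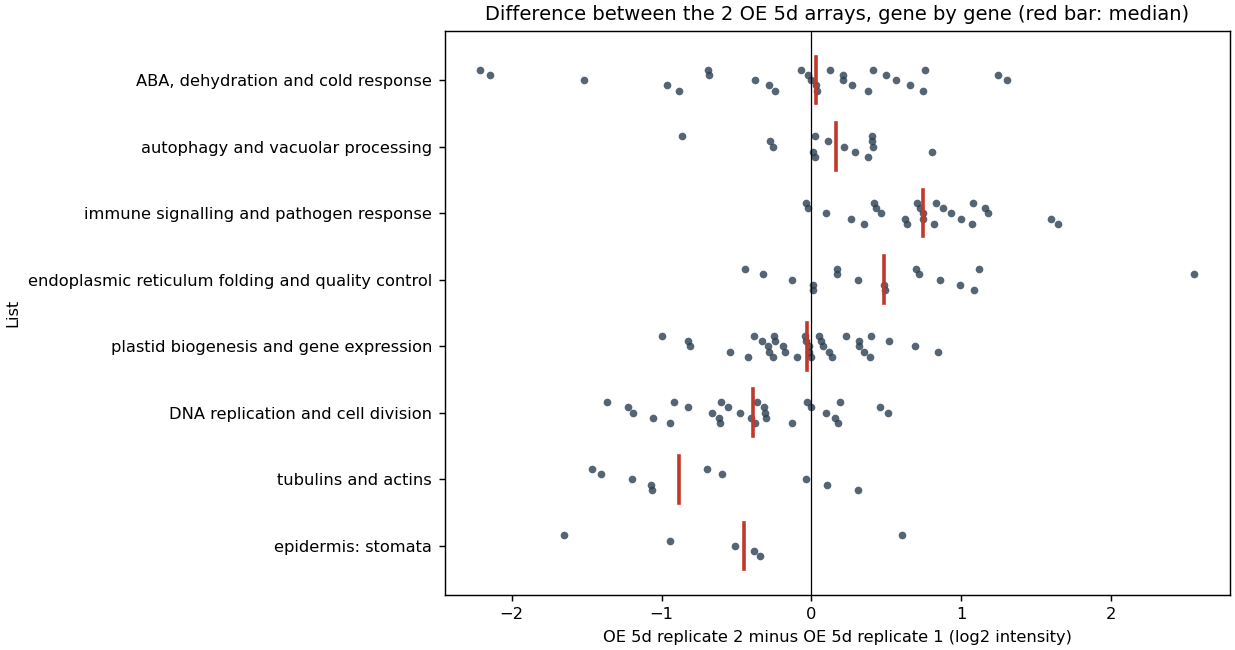
Log2 difference between OE 5d replicate 2 and OE 5d replicate 1 for each gene (points) of 8 lists, with the median as a red bar. The points of the immune list lie right of 0 for 23 of 25 genes, those of the ABA list on both sides, and those of the tubulins and the cell division genes mostly left of it.

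Of 14 genes for ATG8 proteins, ATG3 and vacuolar processing enzymes, 10 rose and 0 fell in OE, beside 6.79% and 5.47% over all genes. The medians were 0.80 on replicate 1 and 1.04 on replicate 2, beside 0.02 and -0.02 over all genes. In WT the median was 0.88 and 11 rose, beside 1961 of all 13381 genes. ATG8D, for 1 of the small ubiquitin-like proteins that build the autophagosome, was at 249.7 and 251 in OE 5d, against 71.6 and 77.1 in OE 0d (log2 change 1.75, adjusted p = 0.0011). Its OE 5d arrays were nearly equal to each other. APG8H, of the same family, was at 1317 and 1338 in OE 5d, against 598 and 609.8 in OE 0d, again with equal OE 5d arrays. The vacuolar protease gene GAMMA-VPE was at 1631 and 2852 in OE 5d, against 834 and 692 in OE 0d, higher on replicate 2. All 9 ATG8 genes with a symbol here rose, by 0.56 to 1.75 on the log2 scale.

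Among carbon and amino acid genes, some rose and others fell. The amylase gene AMY1 was at 122 and 204 in OE 5d, against 67.8 and 48.6 in OE 0d, and STP1, a hexose importer of the plasma membrane, at 730.0 and 1219.9, against 298 and 330.1 (adjusted p = 0.0167 and 0.00944). SWEET4, a sugar transporter, rose to 151 and 155 in OE 5d, against 45.9 and 57.5 in OE 0d (log2 change 1.57, adjusted p = 0.00535), the same on both arrays. The starch synthase gene SS3 fell to 43.8 and 65.7 in OE 5d, against 116 and 119 in OE 0d, and the branching enzyme gene SBE2.2 to 239 and 305, against 508 and 418. Of 12 genes of starch and sucrose, 3 rose and 2 fell, beside 6.79% and 5.47% over all genes. Of 21 sugar transporter genes 2 rose, near that share, and 5 fell, among them those of the vacuolar transporters SWEET16 and SWEET17. BCAT-2, a branched-chain aminotransferase gene listed under branched-chain amino acid breakdown, was at 57.3 and 158 in OE 5d, against 25.1 and 24.8 in OE 0d. It was 2.77-fold higher on replicate 2. Of the 9 genes of that pathway 2 rose (beside 6.79% over all genes), and 6 did when OE 5d replicate 1 was left out (beside 10.8%).

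Genes that build the chloroplast were lower on both OE 5d arrays. Of 34 genes of plastid biogenesis and gene expression, 18 fell and 1 rose, beside 5.47% and 6.79% over all genes. The medians were -0.56 on replicate 1 and -0.67 on replicate 2, beside 0.02 and -0.02 over all genes. In WT 19 fell and 1 rose, beside 1873 and 1961 of all 13381 genes, with a median of -0.54. The count of fallen genes was 20 without the first OE 5d array and 16 without the second. Since leaves were taken whole, fewer cells of a type and less RNA per cell cannot be told apart here.

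Cpn60beta2, a subunit of the chloroplast chaperonin, fell to 183 and 154 in OE 5d, against 853 and 945 in OE 0d (log2 change -2.42, standard error 0.17, adjusted p = 0.0011). TIC110, of the protein import channel of the inner envelope, fell to 190.5 and 207 in OE 5d, against 599 and 627 in OE 0d. For both genes the 2 arrays of each group were close together. The sigma factor gene SIG2, which directs the plastid RNA polymerase, was at 134 and 167 in OE 5d, against 314 and 359 in OE 0d, and CFM3A, for an intron splicing factor, at 48.4 and 60.4, against 106 and 134. Both were lower on replicate 1. RHON1 and NTRC, a plastid RNA-binding protein and a plastid thioredoxin reductase, fell by 1.03 and 1.01 on the log2 scale, and FUG1, a plastid translation initiation factor, was at 455 and 816 in OE 5d, against 1124 and 1445 in OE 0d. TOC33, the import receptor of the outer envelope, was at 520.4 and 297 in OE 5d, against 699 and 793 in OE 0d. PRIN2, which acts with the plastid RNA polymerase, was at 299.9 and 150.3 in OE 5d, against 441 and 488 in OE 0d, and like TOC33 was lower on replicate 2. The exception was PIFI, a gene of electron flow through the plastid NDH complex, which rose to 2399 and 3164 in OE 5d, against 1487 and 1355 in OE 0d.

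Of 13 genes of chlorophyll and haem synthesis, 6 fell and 0 rose, beside 5.47% and 6.79% over all genes. The medians were -0.39 on replicate 1 and -0.54 on replicate 2, beside 0.02 and -0.02 over all genes. The magnesium chelatase gene CHLI2 fell to 292 and 205 in OE 5d, against 459 and 566 in OE 0d (log2 change -1.06, adjusted p = 0.0151), GSA1 of the first steps of the pathway to 259 and 239, against 489.6 and 497, and HEME2 to 492 and 363, against 794 and 967. For these 3 genes both OE 5d arrays lay under both OE 0d arrays. Of 19 nuclear genes of the photosystems, thylakoid electron transport and the Calvin cycle, 3 fell and 1 rose, beside 5.47% and 6.79% over all genes. SBPASE, a regulated enzyme of the Calvin cycle, fell to 2196 and 2545 in OE 5d, against 3732 and 4094 in OE 0d (adjusted p = 0.0135). The light-harvesting gene LHCB4.1 was at 7807 and 8616 in OE 5d and 8369 and 8556 in OE 0d, and PSAE-1 of photosystem I was at 6538 and 6543 in OE 5d and 6489 and 6636 in OE 0d. Neither passed the test (adjusted p = 0.886 and 0.987). PRK, the phosphoribulokinase gene, was at 1856 and 4066 in OE 5d, against 4420.5 and 4603 in OE 0d, low on replicate 1 only (adjusted p = 0.178).

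**Figure D4:**
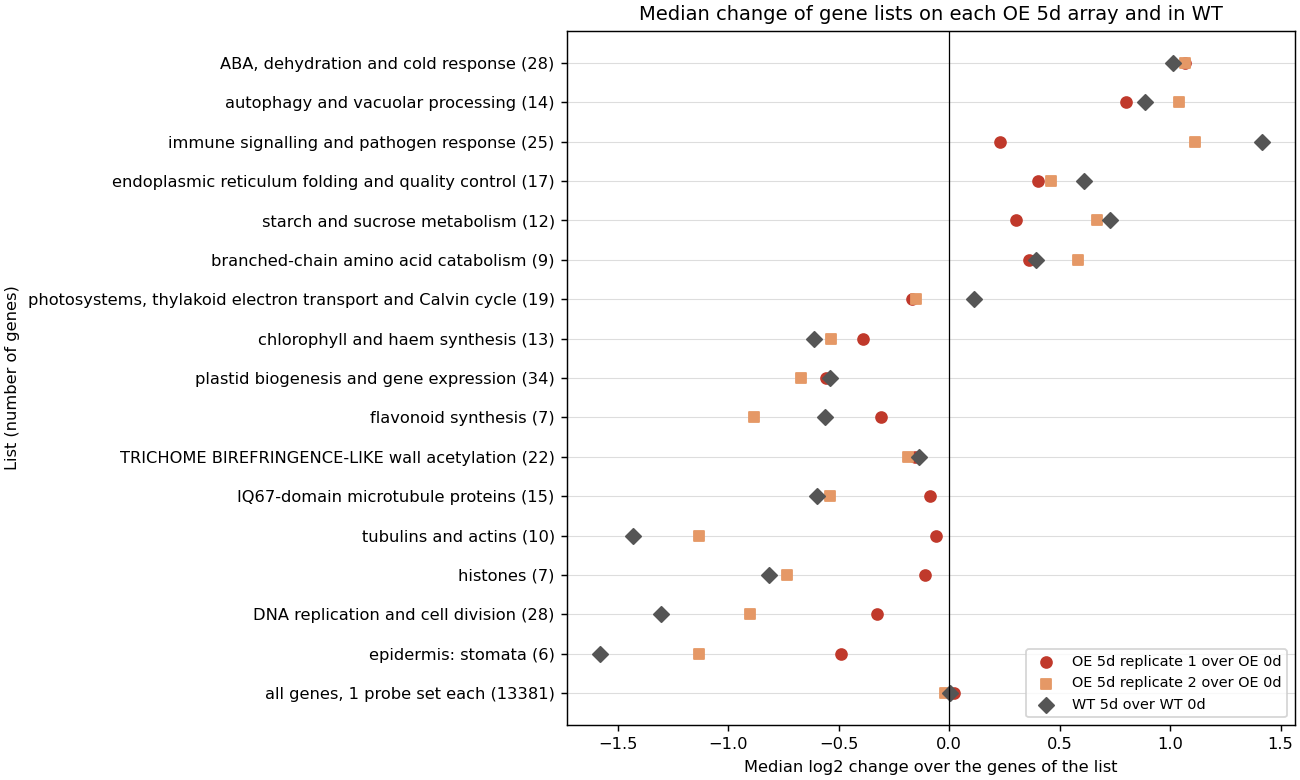
Median log2 change of 16 gene lists and of all genes on OE 5d replicate 1, on OE 5d replicate 2 and in WT 5d over WT 0d, with the number of genes in brackets. The 3 markers lie close together for the ABA list (1.07, 1.07 and 1.01), while for tubulins and actins replicate 1 (-0.06) lies near 0 and replicate 2 (-1.13) nearer to WT (-1.43).

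Genes of cell division were lower on both OE 5d arrays at the median. Of 28 genes of DNA replication and mitosis, 7 fell (beside 5.47% over all genes) and 0 rose in OE. In WT 25 fell, beside 1873 of all 13381 genes. The difference between the responses passed the test for 0 of the 28. The median was -0.33 on OE 5d replicate 1, -0.90 on replicate 2 and -1.31 in WT. When OE 5d replicate 1 was left out 18 fell (beside 11.9% over all genes), and 6 when replicate 2 was. TOPII, the DNA topoisomerase of dividing cells, was at 22.9 and 17.3 in OE 5d, against 42.6 and 66.3 in OE 0d, and PRL, for the replication helicase subunit MCM7, at 53.6 and 52.5, against 94.6 and 122. 3xHMG-box2, for a protein that binds mitotic chromosomes, was at 49.3 and 67.6 in OE 5d, against 121 and 201 in OE 0d. These 3 genes fell by 1.02 to 1.43 on the log2 scale (adjusted p = 0.0135, 0.0129 and 0.0122) and were low on both OE 5d arrays. For FU, a kinase gene of cytokinesis, the probe set used fell (log2 change -1.08) and a dimmer one had a log2 change of 0.40.

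Other division genes were much lower on OE 5d replicate 2. The replication clamp gene PCNA1 was at 215 and 103 in OE 5d, against 276 and 298 in OE 0d, and at 108 and 86.1 in WT 5d. SYP111, the syntaxin of the cell plate, was at 189.6 and 81.0 in OE 5d, against 167 and 214 in OE 0d, and at 40.7 and 29.0 in WT 5d. Replicate 1 lay near or among the OE 0d arrays for both, and neither passed the test in OE (adjusted p = 0.0811 and 0.334). Among 7 histone genes, 2 fell and 1 rose in OE, beside 5.47% and 6.79% over all genes. HTB1 and HTB4, for histone H2B, fell, and the drought-inducible HIS1-3 rose. The median change of the 7 was -0.11 (log2) on OE 5d replicate 1 and -0.74 on replicate 2. In WT 5 fell and 1 rose, beside 1873 and 1961 of all 13381 genes.

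Cytoskeleton genes also differed between the OE 5d arrays. Of 10 tubulin and actin genes 2 fell in OE and 6 in WT, beside 732 and 1873 of all 13381 genes. ACT11 was at 21.5 and 20.9 in OE 5d, against 109 and 102 in OE 0d, even on both arrays, whereas the tubulin gene TUB7 was at 135 and 64.4, against 193 and 219. TUB5 was at 355 and 155 in OE 5d, against 262 and 230.0 in OE 0d, above OE 0d on replicate 1 and under it on replicate 2. The tubulins TUA4, TUA6 and TUB6 were likewise lower on replicate 2, with adjusted p-values of 0.101, 0.077 and 0.502. Of 15 genes for IQ67-domain proteins, which bind calmodulin and microtubules, 4 fell and 0 rose, beside 5.47% and 6.79% over all genes. The median change of the 15 was -0.09 (log2) on OE 5d replicate 1 and -0.54 on replicate 2. The largest fall among them was that of iqd21, to 151 and 92.3 in OE 5d, against 346 and 306 in OE 0d.

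Of the 14 largest falls, taken by the same rule, 5 carried a symbol, Cpn60beta2, ACT11 and ERD9 among them. The largest was that of TBL26, of a family that acetylates wall polysaccharides, at 65.8 and 43.8 in OE 5d, against 248 and 377 in OE 0d (log2 change -2.51, adjusted p = 0.00305). WT had 54.5 and 40.3 in WT 5d and 68.4 and 89.9 in WT 0d, so that the OE 0d arrays were the high ones. The test of the difference between the responses gave an adjusted p of 0.164. Of the 22 genes of this family, 6 fell (beside 5.47% over all genes) and 0 rose. FLA9, a fasciclin-like arabinogalactan protein gene, was at 164 and 100.2 in OE 5d, against 503 and 423 in OE 0d. The other 9 falls are known here by locus tag only. AT2G10940, the brightest of them, was at 1178 and 618 in OE 5d, against 3477 and 3411 in OE 0d, and AT4G17470 was at 136 and 53.7, against 471 and 479. In both, the OE 5d arrays lay under OE 0d and replicate 2 was the lower one.

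**Figure D5:**
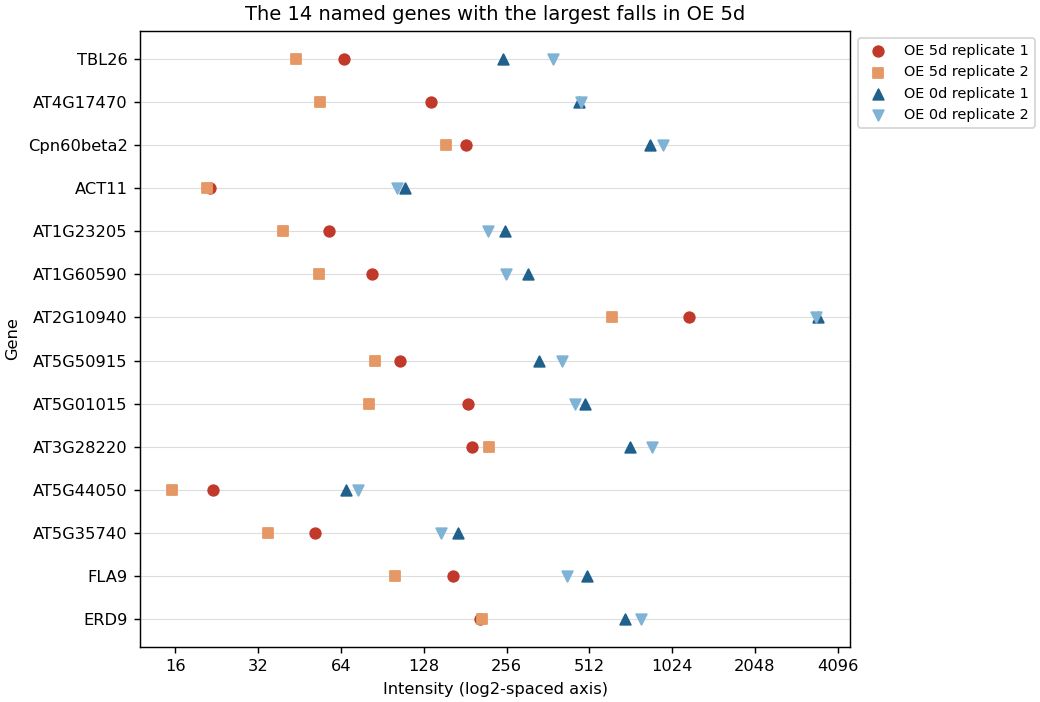
Intensity on a log axis for the 14 genes with the largest falls in OE 5d, 1 row per gene and 1 marker per array. The genes were chosen so that OE 5d and OE 0d do not overlap, and within the OE 5d pair replicate 2 lies left of replicate 1 in all rows but those of AT3G28220 and ERD9.

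Of 29 genes for expansins and xyloglucan endotransglucosylases, which loosen walls, 3 rose and 2 fell, near the 6.79% and 5.47% over all genes. The expansin gene EXPA16 rose to 254 and 221 in OE 5d, against 72.1 and 91.8 in OE 0d (adjusted p = 0.00709), and XTH16 fell to 84.0 and 42.9, against 173 and 173 (adjusted p = 0.0113). XTH32 was at 461 and 108 in OE 5d, against 509 and 406 in OE 0d, low on replicate 2 alone. Of 24 cellulose synthase-like and endoglucanase genes 1 fell, CSLD5, near the 5.47% over all genes, and 8 did with OE 5d replicate 1 left out, beside 11.9% over all genes. RALFL34, for a secreted signalling peptide, was at 1315 and 481 in OE 5d, against 1169.6 and 1111 in OE 0d, and 0 of the 10 RALF peptide genes passed the test in either direction.

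Of 6 genes of the stomatal lineage, which makes guard cells from young epidermis, 2 fell in OE and 5 in WT. Over all 13381 genes, 732 fell in OE and 1873 in WT. SDD1, a protease that limits stomatal number, was at 14.7 and 11.2 in OE 5d, against 39.7 and 32.2 in OE 0d, and the basic helix-loop-helix gene SCRM2 at 112 and 88.6, against 165 and 166. STOMAGEN, a peptide of the mesophyll that promotes stomata, was at 295 and 93.8 in OE 5d, against 349 and 303 in OE 0d, and at 52.4 and 58.7 in WT 5d. It was within the OE 0d range on neither array, but replicate 1 was close to it, and its adjusted p was 0.198. Of 7 flavonoid genes, 2 fell and 0 rose in OE, beside 5.47% and 6.79% over all genes. In WT 3 fell, beside 1873 of all 13381 genes. Those that fell in OE were CHIL, of flavonoid production, and the flavonol rhamnosyltransferase gene UGT78D1. DFR, of anthocyanin synthesis, was at 54.8 and 8.65 in OE 5d, against 94.9 and 38.9 in OE 0d (adjusted p = 0.277).

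Of 18 genes of jasmonate synthesis and response, 1 rose and 2 fell in OE, near the shares over all genes (6.79% and 5.47%). In WT 6 rose and 4 fell, beside 1961 and 1873 of all 13381 genes. ORA59, which joins jasmonate and ethylene signals, rose to 135 and 110.4 in OE 5d, against 69.5 and 47.5 in OE 0d, and the thionin gene THI2.2 fell to 33.2 and 34.6, against 117 and 96.6. The beta-glucosidase gene PYK10 was the other to fall. The defensin gene PDF1.2 was at 1347 and 289 in OE 5d and 999.8 and 904 in OE 0d, against 466 and 556 in WT 5d and 83.1 and 27.4 in WT 0d. Its OE 5d arrays lay on both sides of the OE 0d pair (adjusted p = 0.659 in OE and 0.174 for the difference from WT). The thionin gene THI2.1 was at 312 and 56.8 in OE 5d and 43.5 and 159 in OE 0d, with overlapping arrays. ATLP-1, a thaumatin-like gene outside this list, was at 264 and 78.6 in OE 5d, against 197 and 241 in OE 0d. It was at 35.2 and 18.9 in WT 5d, against 473 and 343 in WT 0d.

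The larger families that carry symbols had counts mostly near the shares over all genes, 6.79% higher and 5.47% lower. In 47 UDP-glycosyltransferase genes 2 rose and 4 fell, in 29 serine carboxypeptidase-like genes 1 rose and 2 fell, in 23 beta-glucosidase genes 1 rose and 2 fell, in 18 CYP71B genes 3 rose and 0 fell, and in 15 tetraspanin genes 2 rose and 1 fell. TET8, a tetraspanin of secreted vesicles, was at 1032 and 1551 in OE 5d, against 418 and 486 in OE 0d. The carboxypeptidase-like gene SCPL49 was at 258 and 230.2 in OE 5d, against 87.4 and 81.8 in OE 0d. Both pairs stood apart, with adjusted p-values of 0.00562 and 0.00204.

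Probe sets for the chloroplast genome were mostly higher on replicate 2 of OE 5d. Of 69 genes, 2 rose and 9 fell in OE, beside 6.79% and 5.47% over all genes. The medians were -0.33 on replicate 1 and -0.10 on replicate 2. On replicate 2, 53 of the 69 were above replicate 1, as were 45.6% of all genes. The counts of rises and falls in this list depended on which OE 5d array was left out. rpl14, for a ribosomal protein, was at 598 and 571 in OE 5d, against 1112 and 1029 in OE 0d, and rpoC2, for a subunit of the plastid RNA polymerase, at 53.7 and 62.0, against 100.2 and 116. These fell evenly on both arrays (adjusted p = 0.0109 and 0.00934). atpA, for the alpha subunit of the plastid ATP synthase, differed widely between the OE 5d arrays, at 89.9 and 1129 in OE 5d and 628 and 799.7 in OE 0d. WT 5d was as uneven, at 1755 and 124, with the low value on the other replicate number.

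The 7 probe sets with a more positive change in OE than in WT by the test include 3 with a name. AT5G19120 was at 983 and 857 in OE 5d, against 272 and 304 in OE 0d, and at 276 and 319.8 in WT 5d, against 548 and 455 in WT 0d. It rose in OE (1.67, adjusted p = 0.00204) and fell in WT, and the difference of 2.42 had an adjusted p of 0.0256. AT4G36180 was at 34.8 and 25.5 in OE 5d and 31.9 and 33.5 in OE 0d, against 11.6 and 11.6 in WT 5d and 64.0 and 60.7 in WT 0d. It did not pass the test in OE (adjusted p = 0.684), and part of its values lie under 32. AT4G22490, at 8.01, had the largest difference of the 7. Of the 4 without a name here, the brightest was at 1285 and 1349.7 in OE 5d, against 319 and 328 in OE 0d, and at 292 and 531 in WT 5d, against 1019 and 899 in WT 0d. The next was at 797 and 587 in OE 5d, against 95.8 and 81.1 in OE 0d, and at 20.1 and 28.9 in WT 5d, against 70.5 and 113 in WT 0d. For both, OE 5d lay above OE 0d and WT 5d below WT 0d with no overlap in either genotype, and the other 2 were under 32 on all 4 OE arrays.

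The genes that differed most between the OE 5d arrays are given as values only. Apart from atpA, the 7 with the largest excess on replicate 2 include AT1G35710, at 171 and 1129 in OE 5d, against 206 and 127 in OE 0d, with 1173 and 1363 in WT 5d. The other 6 were bright on that array alone, such as AT1G66850 at 12.6 and 209.9 in OE 5d, against 11.3 and 11.4 in OE 0d, and ATA27, a beta-glucosidase gene of the anther, at 5.39 and 75.3, against 4.46 and 6.38. In all, 20 probe sets were at 32 or more and over 4-fold above every other array on OE 5d replicate 2, where the other arrays had 0 to 2 such probe sets. The highest of the 20 reached 371 and the lowest 33.8, and 8 of them had a name. Of 15 genes of anther, pollen and ovule, 13 were under 32 on all 8 arrays, ATA27 reached 32 on replicate 2 of OE 5d only, and the summed intensity of the list was 174 and 266 in OE 5d, against 188 and 195 in OE 0d and 168 to 186 in WT. The part of flower tissue in the results from replicate 2 was not tested. Of 5 root genes, 4 were under 32 on all 8 arrays, and the fifth, the beta-glucosidase gene PYK10, was at 25.2 and 13.6 in OE 5d, against 61.7 and 40.5 in OE 0d.

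Of the 8 genes with the largest excess on replicate 1, AT2G14900 was at 697 and 47.0 in OE 5d, against 246 and 144 in OE 0d, and ARPN, for plantacyanin, a small copper protein, at 289.5 and 33.6, against 108 and 78.3. For both, replicate 1 was above and replicate 2 under both OE 0d arrays. GH9B8, an endoglucanase gene, was at 108 and 15.8 in OE 5d and 148 and 71.1 in OE 0d. AT3G53980 was at 626 and 97.8 in OE 5d, against 40.1 and 49.6 in OE 0d, above OE 0d on both arrays (adjusted p = 0.0557). The other 4 had 6.83- to 15.0-fold higher intensities on replicate 1 than on replicate 2.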

How the data were processed

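Leaf RNA was amplified, labelled, hybridized to ATH1 GeneChips and scanned by a commercial service, and the intensity values were deposited by the authors as normalized linear intensities per probe set. The software that made them is not given in the sources used here. Values ranged from 2.91 to 13003 and were taken to log2. After removal of 64 array controls from the 22810 probe sets, 22746 were fitted with limma 3.58.1 in R 4.3.3 (lmFit, eBayes), with a mean for each of 4 groups on 8 arrays and Benjamini-Hochberg adjustment. Two-sided p-values are given, and the scripts were tested on simulated data. Names came from the platform annotation, RefSeq locus tags and the probe set names of a supplementary table; 503 probe sets of several genes and 9215 without a name here stayed unnamed. Of several probe sets of a gene, the brightest was used.

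Genes were named by rule. The rule took the 14 largest rises and 14 largest falls, and up to 4 members of each list with the largest change. It also took the 8 largest differences between the OE 5d arrays in each direction, and the probe sets called for the difference between genotypes. The genes that the study measured by qRT-PCR were named too, where they had a name here. Further list members were picked after their values were seen. The members and the 32 gene lists, built from gene symbols, were chosen with earlier results of these data known, and lists are described by counts and medians with no test. Alternatives were a fit of 1 genotype alone, a replicate block, quantile normalization, median centring, a filter and a floor at 32, a trend with robust eBayes, an ordinary test, the fold and p threshold of the study's methods, and each array left out. Promoter motifs were not analysed here.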

Additional observations from a re-analysis of the deposited data

Results flagged for a closer look

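The response of OE (5d over 0d) minus that of WT passed the test for 7 probe sets. The difference was 8.01 (log2) for AT4G22490, 2.42 for AT5G19120 and 2.29 for AT4G36180. For the 4 without a name here it was 4.85, 4.59, 3.31 and 2.81. In WT, all 7 were lower at 5d.

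In the genes PRK and RCA, of the Calvin cycle, both OE 5d arrays lay under the OE 0d mean and both WT 5d arrays above the WT 0d mean. The difference of the responses was -1.0 for PRK and -0.39 for RCA, and neither passed the test. PRK was at 1856 and 4066 in OE 5d, against 4420.5 and 4603 in OE 0d, and was low on replicate 1 only.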

How the results depend on the processing

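Quantile normalization, median centring, the filter at 32 and the trend with robust eBayes left every count of called probe sets within 1.5 times its value. The OE counts of 1607 higher and 1485 lower were 225 and 127 in a fit of the 4 OE arrays, 624 and 643 with values under 32 set to 32, 367 and 341 by the ordinary test, and 880 and 552 when called at an unadjusted p under 0.05 with a change beyond 2-fold. They ranged from 203 to 2658 higher and from 80 to 2989 lower with 1 array left out. The WT counts of 3567 and 3376 were 2136 and 1778 with the floor, 2040 and 1731 by the ordinary test and 1678 and 1843 at the fold threshold, with ranges of 1975 to 4397 and 1794 to 4350. The counts for the difference between genotypes, 7 higher and 0 lower, were 27 and 28 with the floor, 0 and 0 by the ordinary test and 709 and 412 at the fold threshold, and ranged from 1 to 2212 and from 0 to 1947, the highest without OE 5d replicate 2. The cause of these shifts was not tested. No source ties same-numbered arrays together. Their deviations from the group means correlated at 0.07 between OE 5d and OE 0d, 0.17 between WT 5d and WT 0d, 0.22 between OE 5d and WT 5d and 0.13 between OE 0d and WT 0d, and the block is given here only. With the replicate block the OE counts were 1681 and 1574, and the difference between genotypes had 9 higher and 1 lower.

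Of the 1607 rises and 1485 falls, 1499 and 1361 were called again without OE 5d replicate 1, and 1248 and 1115 without OE 5d replicate 2. For 159 named genes, 2042 of 2537 values under the alternatives kept direction and side of the threshold, 404 lost the call, 61 gained it and 30 changed sign, in 21 genes of which 0 were called with all arrays. With 1 array left out, the log2 changes of these genes ranged from -0.96 to 0.57 for CML41, -0.26 to 0.21 for CML42, -2.70 to 0.074 for GH9B8, -1.24 to 0.21 for RALFL34, -0.33 to 1.13 for RALFL32, -0.36 to 0.13 for RALFL33, -2.98 to 0.67 for atpA, -0.28 to 0.14 for PLIM2b, -0.012 to 0.15 for LHCB4.2 and -0.14 to 3.86 for AT5G48210. They ranged from -0.0096 to 2.63 for AT5G17340, -1.14 to 2.77 for AT5G50335, -2.0 to 1.89 for AT2G14900, -1.45 to 1.65 for ARPN, -1.38 to 1.69 for AT5G22460, -1.82 to 1.0 for PRA1.F1, -1.57 to 1.2 for AT3G13980, -0.36 to 0.089 for AT4G36180, -0.28 to 0.12 for a probe set without a name here, -1.72 to 0.50 for PDF1.2 and -1.47 to 0.28 for ATLP-1. With the floor, values with a changed sign were 0.15 for PRA1.F1, 0.20 for AT3G13980 and 0.028 for AT4G36180. An array left alone in its group was assumed to vary like the others. With 2 arrays per group the number of arrays limits precision, and 47.8% of the values were close to background.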
